A study of Mus musculus with 5 samples.

Results

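The genes described here are 8 of the 23771 genes in the gene table of this study, named as 2 families of the interferon gamma response. The first holds the immunity-related GTPases Irgm1, Irgm2, Igtp and Iigp1. The second holds the chemokines Cxcl9, Cxcl10 and Cxcl11, to which the checkpoint ligand Cd274 was added. The rule names the genes and uses no measured value. The genes were, however, chosen with earlier results of these data known, so counts of them past a fold are description only. There were values for 7 of the 8 genes, and Cxcl11 was not analysed here. The values compared are those of cancer cells in 2 single-cell RNA sequencing libraries of mouse lung, 1 per treatment.

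Both libraries came from lungs of female BALB/c mice, 11 weeks of age at collection. The mice first received intravenous control medium (CM) or medium with tumor-secreted factors (TSF), the latter conditioned by pieces of resected mammary tumors, 3 times per week for 3 weeks. All mice of both groups then received 25000 4T1 cells, a mouse mammary carcinoma line made to carry the CD90.1 reporter with a lentiviral vector, and lungs were taken 16 days later. Cells of 3 mice were pooled in each library, so that mice cannot be told apart, and with 1 library per group no difference given here has a replicate check and none was tested. The comparison asks how the cancer cells of TSF-treated lungs differ from those of control lungs.

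Interferon gamma is a cytokine made mainly by activated T cells and NK cells. Its receptor signals through the JAK kinases, and promoters of genes that respond to it often hold GAS elements or ISRE elements, the latter bound by factors such as IRF1. Immunity-related GTPases (IRG proteins) are among the most strongly induced products in mouse cells and act on the membranes of vacuoles that hold intracellular parasites. Irgm1, Irgm2 and Igtp (also known as Irgm3) regulate the family on the cell's own membranes, whereas Iigp1 is an effector that is loaded onto vacuoles. CXCL9, CXCL10 and CXCL11 attract activated T cells through the receptor CXCR3, and CD274, better known as PD-L1, restrains T cells through PD-1.

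The members lie at 5 places on 4 chromosomes (GRCm38, GENCODE M21). Irgm1 (ENSMUSG00000046879) lies on the minus strand of chromosome 11, from 48861968 to 48871683. Igtp (ENSMUSG00000078853) and Irgm2 (ENSMUSG00000069874) lie on the plus strand of the same chromosome, from 58199556 to 58207591 and from 58199618 to 58222782. Their annotated gene bodies overlap by 7974 bases, so reads of one may have been counted for the other or dropped, and their values are uncertain in that respect. Iigp1 (ENSMUSG00000054072) is on chromosome 18. Cxcl9 (ENSMUSG00000029417, 92321347 to 92328079), Cxcl10 (ENSMUSG00000034855, 92346638 to 92348889) and Cxcl11 (92359544 to 92365485) sit side by side on the minus strand of chromosome 5. The annotation gives Cxcl11 as a polymorphic pseudogene and the others as protein-coding genes. Cd274 (ENSMUSG00000016496) lies on the plus strand of chromosome 19, from 29367455 to 29388095.

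Promoter sequence was read from RefSeq (GRCm38.p6), which held a window from 250 bases before to 50 bases after the RefSeq start of 6 of the members. The RefSeq starts of Irgm1, Irgm2 and Cd274 differed from the GENCODE ones. The Irgm2 window (58214727 to 58215026) lies inside its GENCODE gene body and past the end of Igtp at 58207591. The overlap of Irgm2 with Igtp given above thus rests on the GENCODE start. The promoter sequence was searched on both strands for the GAS letters TTCNNNGAA and the ISRE letters, which are GAAA, any 2 bases and GAAA again. These stand for the promoter elements named above. ISRE letters were in the windows of 4 of the 6 members, against 3.44% of all 32851 promoter windows, and GAS letters in 2 of the 6, against 8.30%. The stretches of the 4 members with a match are shown, 5′ to 3′ on the strand of the gene, with the matching letters in capitals. The letters were thus common to only part of the members.

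Irgm1, chr11:48871403-48871482, minus strand: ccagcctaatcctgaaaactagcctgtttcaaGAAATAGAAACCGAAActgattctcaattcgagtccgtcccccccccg
Igtp, chr11:58199481-58199560, plus strand: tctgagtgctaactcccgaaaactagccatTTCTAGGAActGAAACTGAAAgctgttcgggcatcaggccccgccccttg
Irgm2, chr11:58214872-58214951, plus strand: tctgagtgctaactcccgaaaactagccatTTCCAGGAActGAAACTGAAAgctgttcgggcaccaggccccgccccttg
Cxcl10, chr5:92349058-92349137, minus strand: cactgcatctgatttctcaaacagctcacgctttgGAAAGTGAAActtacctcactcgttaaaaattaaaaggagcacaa

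In Igtp and Irgm2 the GAS letters stood just before the ISRE letters, without overlap. The windows of these genes had 244 identical bases of 265 aligned (92.1%). In Irgm1 a pair of ISRE matches overlapped, at positions -30 to -15 from the start, and the best alignment of its window with that of Igtp had 55 identical bases of 71 (77.5%). In Cxcl10 the match lay at positions -213 to -204. The windows of Cxcl9 and Cd274 did not hold these letters, which says only that they are not in these windows. No window was at hand for Iigp1 and Cxcl11. The same letters were counted in the other gene lists described below. ISRE letters were in 4 of the 4 guanylate-binding protein genes with a window, 8 of 14 type I interferon genes and 5 of 9 other IRG genes, but in 2 of 16 other genes induced by interferon gamma and 1 of 9 genes of its receptor and signal, against 3.99% of all genes with a window. They were also in 2 of 9 other checkpoint ligand genes and 1 of 9 other chemokine genes. They were in none of the 7 autophagy genes or the 4 leukocyte receptor and cytokine genes. GAS letters were in 2 of 4 guanylate-binding protein genes, 4 of 9 other IRG genes and 3 of 9 genes of the receptor and signal. They were in 3 of 16 other genes induced by interferon gamma, 3 of 14 type I interferon genes and 2 of 7 autophagy genes, against 9.55% of all genes with a window. GAS letters were also in 1 of 9 other chemokine genes, 1 of 4 leukocyte receptor and cytokine genes and 0 of 9 other checkpoint ligand genes. A match is a description of sequence and was not tested for binding. The sequences are of the reference genome and not of the BALB/c mice or the 4T1 cells.

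The libraries held 3835 cells (CM) and 5197 cells (TSF), of which the authors called 29 and 139 cancer cells. These had a median of 27679 UMIs in the CM library and 26615 in the TSF library. Of the CM cancer cells 8 had under 10000 UMIs (27.6%), and of the TSF cancer cells 14 (10.1%). The libraries shared 31 cell barcodes, none of them among cancer cells. The carcinoma keratins Krt8 and Krt18 had a UMI in 29 and 28 of 29 CM cells and in 137 and 138 of 139 TSF cells. Epcam, an epithelial adhesion molecule, had one in 8 CM cells (27.6%) and 95 TSF cells (68.3%). The CD90.1 reporter, by which the authors recognised the cancer cell clusters, had one in 2 CM cells (6.90%, interval 0.846 to 22.8%) and 48 TSF cells (34.5%, interval 26.7 to 43.1%). Both thus differed between the libraries, and their part in the results was not tested. Of 24 markers of T and NK, B, myeloid and granulocytic cells, 4 had a UMI in a CM cancer cell, and none of these in more than 2 cells. In TSF cancer cells 12 of the 24 had one, the most widespread being Cd68, in 11 TSF cells (7.91%) and 1 CM cell. Their summed level was 0.0479 CP10k in CM cells and 1.12 in TSF cells, where CP10k is UMIs of a gene per 10000 UMIs of a cell. Of the TSF sum, S100a9 gave 0.685 (4 cells) and S100a8 0.300 (2 cells), and these were at 0 in CM cells. Cd3d, Cd3g, Cd8a, Nkg7, Lyz2, Csf1r and C1qa were at 0 in both libraries. Among mesenchymal markers, Pdgfra was seen in 13 CM and 63 TSF cells, and Dcn in 2 and 16, with 0.0907 and 0.526 CP10k. Endothelial markers were in at most 10.3% of CM and 6.47% of TSF cells, and alveolar markers in 0% and at most 5.76%.

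All 7 measured members were lower in the TSF cancer cells, both in mean level and in how many cells had a UMI. The 4 GTPases had together 10.7 CP10k in CM cancer cells and 0.858 in TSF cancer cells. Of the 7 members, 6 were at least 1.5-fold lower on the log2 scale with a pseudocount of 1, against 1.95% of the 10201 genes seen in 10% or more of the cancer cells in one library or the other. The other direction held 0.755% of those genes and no member. Cxcl9 and Cd274 were among the 10201 genes only through their CM share, so their place there is tied to a lower TSF value. Among all 14735 genes with a UMI, whatever their share, 1.36% were lower and 0.543% higher by that rule. At a fold of 2, 5 of the 7 members were lower, against 0.529% of the 10201 genes.

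Igtp had a mean level of 3.87 CP10k in the CM library and 0.306 in the TSF library. A UMI of it was present in 23 of 29 CM cells (79.3%, 95% Clopper-Pearson interval 60.3 to 92.0%) and in 42 of 139 TSF cells (30.2%, interval 22.7 to 38.6%). Its mean level was thus 12.7-fold lower in the TSF cells, and its log2 fold change with the pseudocount was -1.90. That was the 8th lowest of the 10201 genes.

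Irgm1, a regulator of the family that also sits on host membranes, had 2.24 CP10k in CM and 0.192 in TSF cells. It was seen in 23 CM cells (79.3%) and in 46 TSF cells (33.1%, interval 25.4 to 41.6%). The level was 11.7-fold lower, with a log2 fold change of -1.44. The share of cells was 2.40-fold lower (interval 1.39 to 4.04).

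Irgm2 had 1.40 CP10k in CM and 0.119 in TSF cells, which is 11.8-fold lower, with a log2 fold change of -1.10. It was seen in 18 CM cells (62.1%, interval 42.3 to 79.3%) and 21 TSF cells (15.1%, interval 9.60 to 22.2%). In these shares it stood 4.11-fold lower (interval 2.06 to 8.10).

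Iigp1, the effector GTPase, had 3.18 CP10k in CM and 0.241 in TSF cells, 13.2-fold lower, with a log2 fold change of -1.75. It was seen in 20 CM cells (69.0%, interval 49.2 to 84.7%) and 23 TSF cells (16.5%, interval 10.8 to 23.8%). The GTPases thus showed ratios of mean level within a narrow band, from 11.7 to 13.2, whereas their ratios of shares ran from 2.40 to 4.17. In none of the 4 did the intervals of the CM and TSF shares overlap, against 1.51% of the 10201 genes with intervals apart and the TSF share lower.

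Cxcl10, the CXCR3 ligand, had 1.87 CP10k in CM and 0.258 in TSF cells. This is 7.23-fold lower, with a log2 fold change of -1.19. It was seen in 11 of 29 CM cells (37.9%, interval 20.7 to 57.7%) and 18 of 139 TSF cells (12.9%, interval 7.86 to 19.7%). These intervals do not overlap.

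Cxcl9 was rare in both libraries, with 0.176 CP10k and 4 CM cells (13.8%, interval 3.89 to 31.7%) against 0.0676 CP10k and 7 TSF cells (5.04%, interval 2.05 to 10.1%). Its log2 fold change was -0.14, and the share was 2.74-fold lower with an interval from 0.588 to 10.8. A difference in Cxcl9 was not detectable at this depth.

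Cd274 had 0.899 CP10k in CM and 0.0341 in TSF cells. It was seen in 14 CM cells (48.3%, interval 29.4 to 67.5%) and only 9 TSF cells (6.47%, interval 3.00 to 11.9%). Its mean level was 26.4-fold lower, the widest ratio among the 7 members, and its share 7.46-fold lower (interval 3.01 to 19.5). The log2 fold change was -0.88, because the pseudocount shrinks differences of low values. Without a pseudocount 5 of the 7 members (the GTPases and Cd274) were at least 10-fold lower, against 0.892% of the 10201 genes, and all 7 at least 1.5-fold lower, against 29.8%. As said above, Cd274 and Cxcl9 were among those genes only through their CM share.

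**Figure D1:**
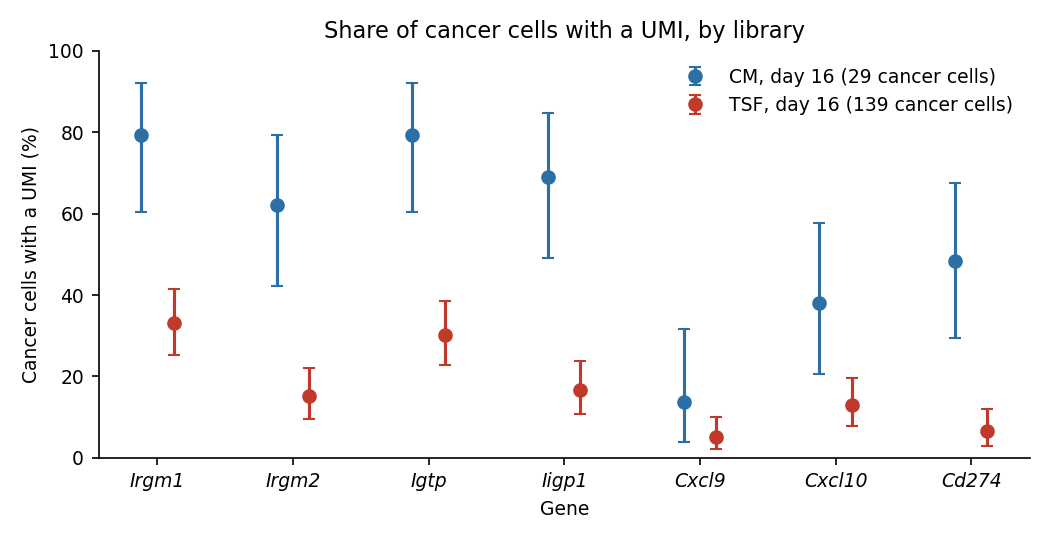
Percent of cancer cells with a UMI (y axis) for each measured gene (x axis) in the CM library (blue, 29 cells) and the TSF library (red, 139 cells), with 95% Clopper-Pearson intervals that cover counting error only. The blue and red intervals are apart for 6 genes, against 1.51% of the 10201 genes, and overlap for Cxcl9. Cd274 and Cxcl9 were among the 10201 genes only through their CM share.

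All 7 members had a share at least 1.5-fold lower in TSF cells, against 12.7% of the 10201 genes, which Cd274 and Cxcl9 joined only through their CM share. These shares carry the depth of each cell and the authors' correction for ambient RNA, and the share in a cell type that lacks the genes was not analysed here.

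A lower mean can be divided into a part from fewer cells with a UMI and a part from a lower level in those cells. A lower level by itself also lowers the share of cells with a UMI, so the share part does not count cells without the RNA. On the plain log2 scale these parts add up. For Irgm1 the share of cells gave -1.26 and the level in cells with a UMI -2.29, so the latter part was the larger. Igtp had the same order, with -1.39 and -2.27. For Irgm2 and Iigp1 the share of cells gave the larger part (-2.04 against -1.52, and -2.06 against -1.66). Cxcl10 was split almost evenly, with -1.55 from the share and -1.30 from the level. Cd274 had -2.90 from the share and -1.82 from the level. For Cxcl9 the level in cells with a UMI was about equal in both libraries, 1.27 CP10k in CM and 1.34 in TSF cells.

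**Figure D2:**
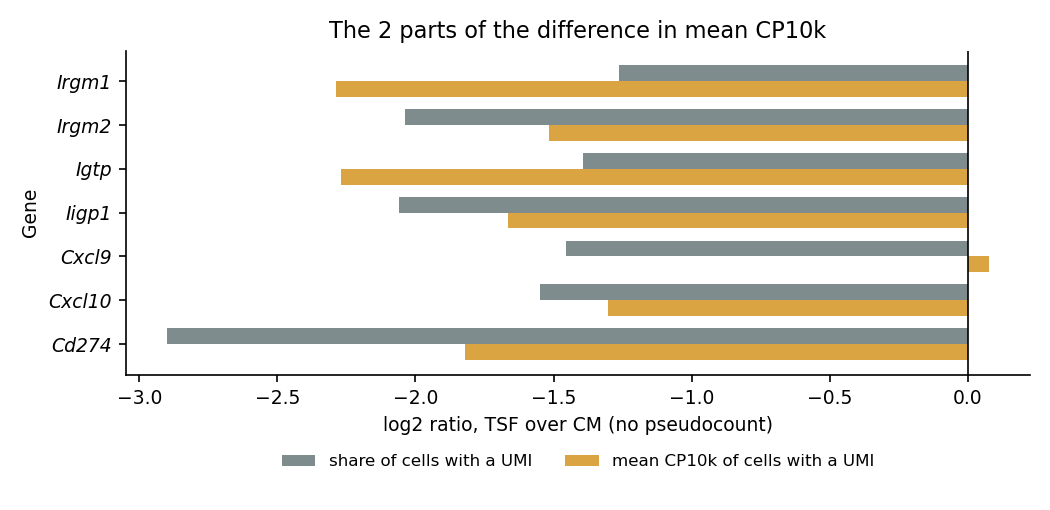
The plain log2 ratio of mean CP10k, TSF over CM (x axis), divided into the part from the share of cells with a UMI (grey) and the part from the mean CP10k of those cells (ochre), for each measured gene (y axis). The level part is the larger for Irgm1 (-2.29) and Igtp (-2.27), and the share part for the other genes.

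In a cell of median depth 1 UMI was worth 0.361 CP10k in the CM and 0.376 in the TSF library. The level of Irgm1 in cells with a UMI, 2.83 CP10k in CM and 0.579 in TSF cells, was thus that of 7.83 UMIs and 1.54 UMIs at median depth. Igtp corresponded to 13.5 and 2.69 UMIs, and Iigp1 to 12.8 and 3.88. Cd274 corresponded to 5.15 and 1.40 UMIs. TSF cells with a UMI of Irgm1 or Cd274 thus lay close to the level of a single UMI, where shares of cells depend strongly on depth.

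**Figure D3:**
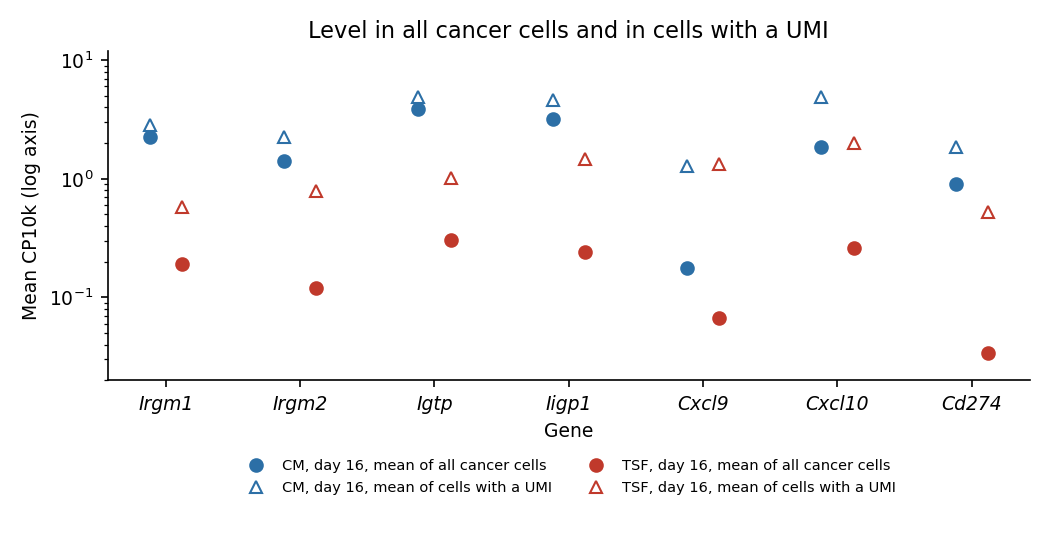
Mean CP10k (log y axis) of each measured gene (x axis) over all cancer cells (filled circles) and over cells with a UMI (open triangles), in the CM (blue) and TSF (red) libraries. Over all cells the TSF values lie between 0.0341 and 0.306 and each is below its CM value, whereas the triangles of Cxcl9 are at 1.27 and 1.34.

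Cells of a library were uneven in most of these genes. If every CM cell had held Cxcl10 at the library's mean level, 90.8% of cells would have had a UMI at their depths (Poisson), and 37.9% did. This shortfall was the 9th largest of the 10201 genes in the CM library, where the observed minus the expected share of the median gene was -2.10 percentage points. In the TSF library 48.7% was expected for Cxcl10 and 12.9% seen, and the difference for the median gene was -2.45 percentage points. Iigp1 had 69.0% of CM cells against 95.4% expected, and 16.5% of TSF cells against 46.6%. Irgm1 was the most even GTPase, with 79.3% against 92.7% in CM and 33.1% against 39.8% in TSF cells. Cd274 was uneven in the CM library, with 48.3% of cells against 79.0% expected. In the TSF library it was seen in 6.47% against 9.10%, a shortfall near that of the median gene (rank 4934 of 10201).

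**Figure D4:**
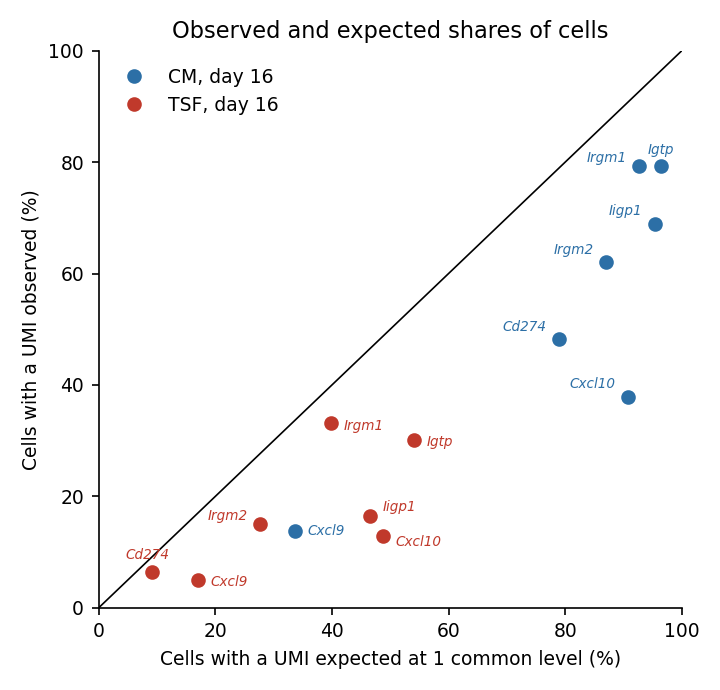
Observed percent of cancer cells with a UMI (y axis) against the percent expected if all cells of the library shared its mean level (x axis), for the 7 genes in the CM (blue) and TSF (red) libraries; the line marks equality. All points lie below the line, and Cxcl10 in CM cells lies farthest from it, at 37.9% against 90.8%. The median gene also lay below it, by 2.10 percentage points in CM and 2.45 in TSF cells.

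The cancer cells fell into 2 fine clusters of the authors, numbered 120 and 131, and the libraries filled them unequally. Cluster 131 held 23 of 29 CM cells (79.3%) and 54 of 139 TSF cells (38.8%). The levels per cluster were not analysed here, and 1 assumed case, chosen after seeing the data, was computed instead. It does not limit the ratio within a cluster. If all RNA of a gene lay in cells of cluster 131, these would hold 2.83 CP10k of Irgm1 in CM and 0.493 in TSF, which is 5.73-fold lower. The ratio in this case was 6.20 for Igtp, 6.47 for Iigp1, 5.76 for Irgm2, 12.9 for Cd274 and 3.54 for Cxcl10, but only 1.27 for Cxcl9. Iigp1, Cxcl9 and Cxcl10 were among the variable genes that the authors' clustering used. Of the annotated cells of the lungs, 18.4% were T cells in CM and 11.7% in TSF, and 3.08% and 2.90% were NK cells. The part of the clusters and of these cells in the differences was not tested.

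The other genes of the pathway were counted in lists, which were chosen with earlier results of these data known. Counts use the same 1.5-fold rule over members with a UMI, and nothing particular to a list follows from them. For comparison, of all 14735 genes with a UMI 1.36% were lower and 0.543% higher, with a median log2 fold change of 0.0011, and the median of the 10201 genes was -0.03.

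Of 11 other IRG genes, 2 were lower (Ifi47 and Tgtp2) and none higher, with a median of -0.32. Ifi47, also known as Irg47, had 3.12 CP10k in CM cells and 0.415 in TSF cells. It was seen in 25 of 29 and 63 of 139 cells. Tgtp2 had 0.886 and 0.0791 CP10k, and its near-identical copy Tgtp1 0.393 and 0.0249, so that reads could be split between them. Gm4951 had 0.455 and 0.0467 CP10k and did not reach the fold with the pseudocount.

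Of 9 guanylate-binding proteins, large GTPases of the same response that act beside the IRG proteins, 7 were lower, with a median of -1.37. Gbp7 had 2.50 CP10k in CM and 0.353 in TSF cells, and Gbp2 had 7.68 and 1.02, Gbp4 3.68 and 0.0836, and Gbp6 2.42 and 0.104. Gbp5, at 0.262 and 0.155, and Gbp8, at 0.0914 and 0.0203, did not reach the fold.

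Of 13 genes for the receptor and its signal, 4 were lower and none higher, with a median of -0.44. Irf1, Socs1 and Irf8 were among the lower genes. Irf1, an activator that is itself induced by the cytokine, had 6.64 CP10k in CM and 1.39 in TSF cells. Socs1, the feedback inhibitor, had 2.65 and 0.385 CP10k. The receptor chains and kinases differed less, and they, like Irf8, Gbp5 and Gbp8, are named after their values were seen. Ifngr1 had 0.504 CP10k in CM and 0.548 in TSF cells, Ifngr2 0.526 and 0.319, Jak1 0.854 and 0.721, and Jak2 0.775 and 0.722. Socs3 had 0.932 and 1.08 CP10k.

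Of 24 other genes induced by interferon gamma, 10 were lower and none higher (median -0.53). B2m, the light chain of MHC class I, had 26.0 CP10k in CM and 13.8 in TSF cells. The immunoproteasome subunit Psmb8 had 10.2 and 5.20. The proteasome activators Psme1 (8.27 and 6.86) and Psme2 (7.94 and 5.40) did not reach the fold. Nos2, the inducible nitric oxide synthase, was seen in 1 CM cell and 25 TSF cells, with 0.0100 and 0.266 CP10k, and is named after its values were seen. Of 16 type I interferon genes 4 were lower (median -0.35), among them Bst2, with 12.4 CP10k in CM and 3.20 in TSF cells, and Isg15, with 6.49 and 1.94. Xaf1 had 2.06 and 0.460 CP10k and Rtp4 1.86 and 0.524. The Hallmark interferon gamma set without the members had 32 lower and 0 higher of 189 genes with a UMI (median -0.17). With the members it had 34 lower of 192. The Hallmark interferon alpha set, in which 2 members were kept, had 17 lower and 0 higher of 99 (median -0.29).

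Chemokines outside the CXCR3 ligands were counted the same way. Of 14 such genes 11 had a UMI, none was lower by the fold and 1 was higher. Cxcl1, a neutrophil attractant, had 4.74 CP10k in CM and 5.26 in TSF cells. Cxcl2, which acts on the same receptor, had 0.182 and 1.73 CP10k, a log2 fold change of 1.21. Ccl5, an attractant of T cells and monocytes, was seen in 15 of 139 TSF cells (10.8%) and in none of the 29 CM cells, which allows a share of up to 10.3% there by a floor of 3 cells. The Clopper-Pearson bound for 0 of 29 cells was 11.9%, above the TSF share, so a difference in the share of Ccl5 was not detectable at this depth. Cx3cl1 had 0.859 and 0.304 CP10k, short of the fold. Cxcl15, Ppbp and Ccl20 had no UMI in either library.

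Of 11 other checkpoint ligands, 8 had a UMI and none passed the fold in either direction. Cd47, the signal against phagocytosis, had 3.39 CP10k in CM and 3.34 in TSF cells. Lgals9 had 1.52 and 0.805, Pvr 0.493 and 0.168, and Nectin2 0.264 and 0.185. Pdcd1lg2, the other ligand of PD-1 and a neighbour of Cd274, had no UMI in any cancer cell, nor had Vtcn1 and Cd86.

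Partners of these proteins on leukocytes were counted in cancer cells too. Ifng had no UMI in 29 CM or 139 TSF cells, which allows shares of cells with a UMI of up to 10.3% and 2.16% by a floor of 3 cells, and of 11.9% and 2.62% by the Clopper-Pearson interval. Pdcd1 was seen in 1 CM cell and Tnf in 1 CM and 8 TSF cells. Cxcr3, the receptor for Cxcl9 and Cxcl10, was seen in 6 CM cells (20.7%) and 19 TSF cells (13.7%), with 0.524 and 0.0674 CP10k.

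Autophagy proteins of the ATG8 family and its conjugation machinery, on which the loading of IRG proteins depends, showed no member past the fold among 10 (median 0.06). Gabarap had 4.35 CP10k in CM and 5.62 in TSF cells, Gabarapl2 2.31 and 2.82, Map1lc3b 1.70 and 1.96, and Map1lc3a 1.71 and 1.28.

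**Figure D5:**
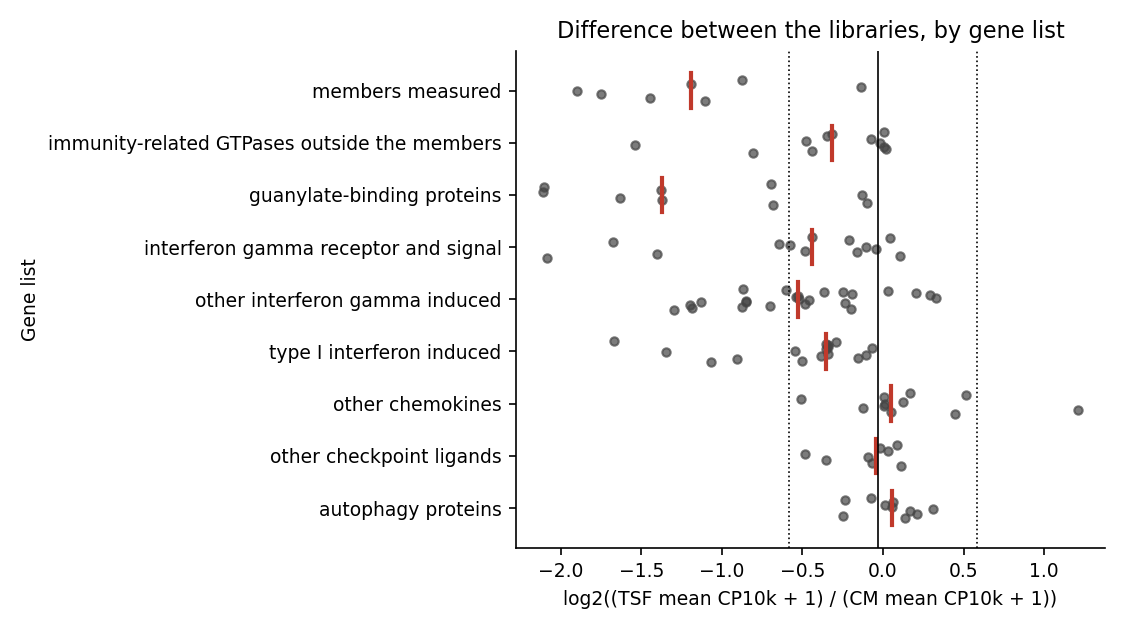
Log2 fold change, TSF over CM, of mean CP10k with a pseudocount of 1 (x axis) for each gene with a UMI (points) by list (y axis), with the list median (red bar), the median of the 10201 genes (solid line, -0.03) and the 1.5-fold limits (dotted lines). Medians are -1.19 for the members, -1.37 for guanylate-binding proteins, 0.05 for other chemokines and 0.06 for autophagy proteins.

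Of the genes next to the members on the chromosome, 1 was lower by the 1.5-fold rule and 0 were higher. Genes at low levels cannot be lower by that rule with the pseudocount of 1. Within 100 kb of a member lay 22 other genes with a UMI that were in none of the lists, with a median log2 fold change of -0.03 and a highest value of 0.11. Mrpl22, beside Igtp and Irgm2, had 0.661 CP10k in CM and 0.572 in TSF cells. Sdad1 and Nup54, on either side of the chemokines, had log2 fold changes of -0.11 and 0.08. Rack1, near Irgm1, had 14.1 and 11.5 CP10k. Plgrkt, which borders Cd274, had a log2 fold change of -0.28. Smim3, near Iigp1, had 0.937 and 0.876 CP10k. The lower gene was Insl6, 42.1 kb from Cd274, with 2.14 CP10k in CM and 0.938 in TSF cells (log2 fold change -0.70).

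By level in the 2 libraries alone, the genes nearest to Irgm1 were Gbp3, Zbp1 and Gbp6 (distances 0.09 to 0.13 on the log2 scale), and those nearest to Cxcl10 were H2-DMa, Gbp2b and Tap1 (0.02 to 0.04). With only 2 libraries likeness is easily met, and 33 and 85 genes lay within 0.5 of Irgm1 and Cxcl10.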

How the data were processed

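Per the labels and the study's methods, the authors mapped 5' 10x reads to a mouse genome (GRCm38.p6) that also held the reporter, subtracted ambient RNA from UMI counts with SoupX, doubling its automatic contamination estimates, and named cell types from clusters. Per the methods, they set aside clusters of mixed cells, checked against scDblFinder scores, and removed no doublets among cancer cells. No doublet caller was run here. The ambient correction lowers weak signals. The submitters' processing notes name Cell Ranger and Seurat 4.1.0. The authors' deposited gene table holds the mean CP10k over cancer cells, the number of cells with a UMI and the percent of cells with a UMI in each library. It also holds fold changes, ranks and p-values over cells, and another table holds enrichment scores. These were not used. The deposited cell table holds UMI counts per cell, and 2 of its sample names that match no sample were not used. UMI totals were 14735974 (CM) and 21451787 (TSF). For genes seen in 1 cell, the mean CP10k matched 1 to 4 UMIs of a cell in the cell table for 99.3% (CM) and 99.5% (TSF) of genes, within 0.001.

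Fold changes are log2 ratios of mean CP10k plus a pseudocount of 1. Intervals of shares are Clopper-Pearson, those of ratios are exact conditional with counts as Poisson, at the 95% level. They and the floor of 3 counts cover counting error only. No test was made with 1 library per group. The members and lists were chosen with earlier results of these data known. Named genes were all members, the 4 with the highest mean CP10k of each list, genes at 0 in lists of ligands or receptors, neighbours and the nearest genes by level. Others are named where a list count is given or as said. The values of 1 gene that this rule names are not reported here. Functions were tested on simulated data. The planned protein motifs were not analysed here. Values were computed with scipy 1.17.1, pandas 2.3.3 and numpy 2.4.6 under Python 3.11.15, promoters were aligned with Biopython 1.88, and plots were drawn with matplotlib 3.10.9.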

Additional observations from a re-analysis of the deposited data

How the results depend on the processing

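The count of members at least 1.5-fold lower was 6 of 7, and 7 with a pseudocount of 0.1 or none (against 17.3% and 29.8% of the 10201 genes), 6 without Rpl and Rps genes, centred on the median gene or with all RNA in cluster 131, and 5 at a fold of 2 (against 0.529%). The share of all genes was not computed for the centred setting or the cluster 131 case, so these counts cannot be read against the 1.95% of the main setting. All 42 alternative member log2 values were below 0, from -4.72 (Cd274 without a pseudocount) to -0.06 (Cxcl9 with all RNA in cluster 131, which was added after seeing the data). Part of this count was fixed in advance, since another pseudocount cannot change the sign and centring moved each value by only 0.03. Of the 42 values, 13 moved by more than the half-width of the interval of the share ratio, 12 of them with a smaller pseudocount and 1 (Cd274) by shares of cells.

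Counts over all 10201 genes depended on the pseudocount and the fold. The 199 lower genes became 1762 with a pseudocount of 0.1 and 54 at a fold of 2. The 77 higher genes became 748 and 13, and 134 without Rpl and Rps genes, where the lower genes were 223. With a pseudocount of 0.1, lower counts were 7 of 11 other IRG genes, 7 of 13 for receptor and signal and 18 of 24 other interferon gamma genes. They were 15 of 16 type I interferon genes, 1 of 11 other chemokines and 2 of 8 other checkpoint ligands. Leukocyte partners had 1 of 3 (Cxcr3) and autophagy genes 1 of 10. The Hallmark alpha and gamma sets, members included, had 61 of 99 and 91 of 192, against 17 and 34 in the main setting. With no pseudocount the counts were 7, 8, 18, 16, 2, 3, 1, 1, 68 and 108 in the same order. Of the 10201 genes, 17.3% were lower with a pseudocount of 0.1 and 29.8% with none. Counts near these shares say nothing particular about a list. At a fold of 2 the other IRG genes had 1, other interferon gamma genes 4, and the Hallmark sets 10 and 18, against 0.529% of the 10201 genes. Without Rpl and Rps genes the leukocyte partners had 1. Lists without a value here stayed within 1.5 times their count.

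Wilson intervals moved no bound by more than 2.00 percentage points. Leaving out a library was not run, since each group had 1. No paired analysis was possible because each group compared had 1 library. The 29 CM cells set the width of every interval.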
